A study of Mus musculus with 16 samples.

Results

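The odorant receptor genes of mouse chromosome 9 were examined in sorted cells of the olfactory mucosa. Members were the probe sets of chromosome 9 whose symbol is Olfr plus a number, leaving out Olfr160, which is also known as M72. This gave 128 of the 1080 odorant receptor genes with such a symbol and of the 19505 genes tested. No probe set was named Olfr151 in the annotation used here. The 3 receptors of chromosome 9 with a pseudogene suffix, Olfr856-ps1, Olfr911-ps1 and Olfr947-ps1, were not counted. Each member had 1 probe set.

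The mice were C57BL/6 carrying an S100a5-tauGFP reporter, of both sexes and 7 to 12 weeks old. S100a5 is a calcium-binding protein that active olfactory sensory neurons make, so GFP is meant to mark neurons with recent activity. All 24 mice were housed singly in clean air chambers for 40 hours, and from hour 26 they received 10-second pulses every 20 minutes of either the odorant bourgeonal, a floral aldehyde, or filtered air as vehicle. Dissociated mucosa was sorted by fluorescence, and RNA pooled from 3 mice per library was hybridised to Clariom S arrays. The 16 libraries form 4 groups of 4: bourgeonal and filtered air, each with libraries titled GFP+ and titled GFP-. The gate in a sample's title is the reverse of the gate in its cell type label in all 16 cases, and the titles define the groups here. The gate ratio is the log2 value of the library titled GFP- minus that of the library titled GFP+ of the same pool, since S100a5 was higher on the titled GFP- side.

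Odorant receptors are G protein-coupled receptors of the cilia of olfactory sensory neurons. They act through the olfactory G protein, adenylyl cyclase and a cyclic nucleotide-gated channel. Each mature neuron expresses a single receptor allele, so a receptor's level in a sorted library follows how many neurons that chose it were collected, as well as how much RNA each made. Those contributions cannot be told apart in pooled cells. The genes lie in clusters along the chromosomes that grew by gene duplication, and the receptors of chromosome 9 belong to class II, the larger class in mammals. The MOR names, given here from the gene synonyms in the RefSeq gene table, group receptors by sequence into numbered families.

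The libraries were checked first. S100a5 had a gate ratio of 0.95 ± 0.25 (SD, n = 4 pools) in filtered air pools and 1.09 ± 0.26 in bourgeonal pools, against the titles. Omp, which mature olfactory neurons express at high levels, lay between 18.63 and 18.97 in all libraries. The highest value of any probe set in a library was 19.38 to 19.59, so Omp lay near the top of the scale. Whether differences are compressed there was not tested. Of 14 mature neuron genes 3 were higher in titled GFP- libraries in each treatment and 0 lower (limma); the 3 were S100a5, Kirrel2 and Ano2. Markers of other cells were higher in titled GFP+ libraries. In filtered air pools 6 of 6 neutrophil and myeloid genes measured, 4 of 4 microvillar cell genes, 3 of 5 sustentacular cell genes and 4 of 7 immature neuron genes were lower in titled GFP- libraries (limma), and 0 of these were higher. The mean of the neutrophil and myeloid genes was 4.36 to 5.91 in the titled GFP- libraries and 13.35 to 14.79 in the titled GFP+ libraries. These lists move with the gate, and their part in the receptor ratios below was not tested. The dorsal zone genes Nqo1 and Acsm4 and the ventral zone genes Ncam2 and Nrp2 did not pass in the gate ratio of either treatment.

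The signal of vomeronasal receptor genes, which belong to another organ, served to mark background. The level used was their 95th percentile, and its highest value over the 4 libraries of a group was 4.57 to 4.97. Of the 128 members, 119 had at least 1 group mean above it and 95 had all 4. The 9 members below it in all groups were Olfr832, Olfr834, Olfr850, Olfr862, Olfr866, Olfr871, Olfr891, Olfr936 and Olfr952. Ratios are compressed near background, so the size of a fall that ends below it is a lower bound.

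In filtered air pools the chromosome 9 receptors divided between the gates. Of the 128 members, 56 (43.8%) were higher and 28 (21.9%) were lower in titled GFP- libraries, and 44 did not pass (limma with the pool as a block, adjusted p under 0.05 over all genes). Over all genes tested, 6.23% were higher and 9.95% lower; without vehicle pool 2 the number of higher genes went from 1216 to 777. Among the 952 other odorant receptors, 34.6% were higher and 28.2% lower. The median gate ratio was 0.68 for the members, 0.21 for the other odorant receptors and 0.09 for all genes. Of the calls, 49 of the rises and 26 of the falls were over 2-fold. Of the 56 higher members 4 had both gate means under background, as did 1 of the 28 lower members. The titled GFP- mean lay below background for 11 more of the lower members, whose falls are therefore lower bounds. The titled GFP+ mean lay below background for 1 more of the higher members, Olfr888, whose rise is a lower bound.

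The 8 largest measured falls were those of Olfr878, Olfr77, Olfr972, Olfr884, Olfr969, Olfr829, Olfr957 and Olfr948, all odorant receptors enriched in the libraries titled GFP+. Olfr77 had values of 11.01, 12.02, 11.79 and 11.59 in the titled GFP+ libraries of pools 1 to 4 and of 4.05, 6.08, 6.24 and 5.83 in the titled GFP- libraries. The gates of Olfr77 lay far apart and did not overlap, and its gate ratio was -6.05 ± 0.62 (SD, n = 4 pools; limma adjusted p = 1.32e-07). Olfr878 stood at 10.75, 11.92, 11.82 and 10.68 in titled GFP+ libraries and at 4.78, 4.88, 2.82 and 5.84 in titled GFP- libraries. Its ratio of -6.71 ± 1.77 is a lower bound on the fall, because the titled GFP- mean of 4.58 lay below background. The same holds for Olfr884 (-5.59 ± 0.61), Olfr957 (-3.99 ± 0.48) and Olfr948 (-3.79 ± 0.26), so these have no order among themselves. The next falls in measured size, of Olfr857, Olfr18 and Olfr943, also ended below background and cannot be ranked below the 8. Olfr829, a member of the other end of the chromosome's receptor set, had values of 9.80, 9.85, 10.45 and 9.18 in titled GFP+ libraries and of 5.66, 6.84, 4.91 and 5.67 in titled GFP- libraries.

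The 8 largest rises were those of Olfr849, Olfr981, Olfr958, Olfr970, Olfr860, Olfr905, Olfr887 and Olfr965. Olfr849 had values of 10.26, 10.75, 11.35 and 10.33 in titled GFP- libraries and of 6.99, 6.30, 7.91 and 5.88 in titled GFP+ libraries. Every titled GFP- library lay above every titled GFP+ library, with a gate ratio of 3.90 ± 0.63 (limma adjusted p = 4.93e-07). Olfr981 had values of 9.97, 8.90, 9.36 and 10.11 in titled GFP- libraries and of 6.06, 5.25, 5.31 and 6.22 in titled GFP+ libraries. Its ratio of 3.88 ± 0.17 varied little between pools. Olfr958 rose by 3.41 ± 0.45, from 8.63, 9.76, 9.60 and 9.62 to 12.71, 13.01, 12.83 and 12.69. The ratios of Olfr970 (3.24 ± 0.83), Olfr860 (3.23 ± 0.30), Olfr905 (3.04 ± 0.24), Olfr887 (3.04 ± 0.74) and Olfr965 (2.91 ± 0.58) differed from each other by less than the largest of these standard deviations. Olfr160, left out of the set, had a gate ratio of 3.44 ± 0.68, between those of Olfr981 and Olfr958. The rises were smaller than the falls at the extremes: 7 members were over 8-fold higher and 12 over 8-fold lower among those that passed.

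**Figure D1:**
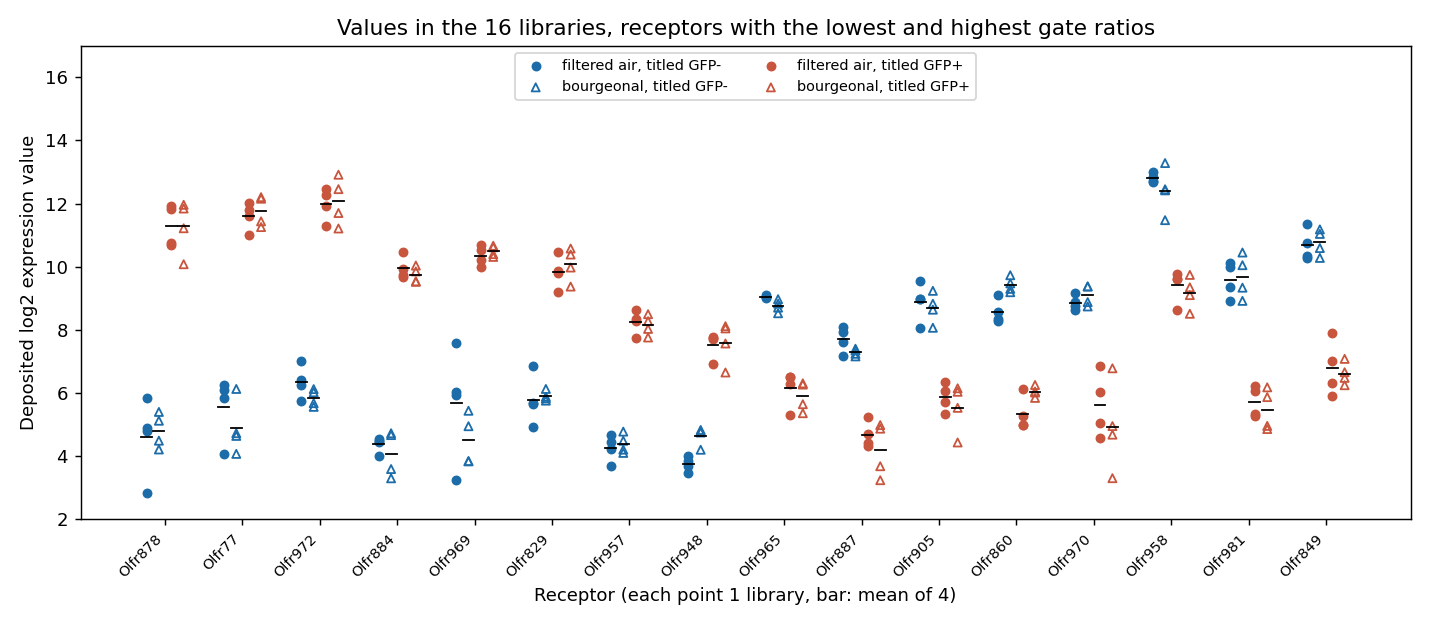
Deposited log2 values (vertical axis) of the 8 receptors with the lowest and the 8 with the highest gate ratio in filtered air pools, 1 point per library and a bar at the mean of 4. Titled GFP- libraries are blue and titled GFP+ libraries red, and filled circles are filtered air and open triangles bourgeonal; the gates of each receptor shown do not overlap within a treatment, as for Olfr77 at 4.05 to 6.24 against 11.01 to 12.02 in filtered air.

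The 5 members with the highest values over all libraries were Olfr24, Olfr893, Olfr835, Olfr968 and Olfr845. Values of different probe sets are not a measure of relative RNA amount, so this is an order of signals. Olfr893 had 13.21, 13.39, 13.50 and 13.06 in titled GFP- libraries and 10.97, 11.45, 12.06 and 11.32 in titled GFP+ libraries of filtered air pools, without overlap, and it passed as higher with a ratio of 1.84 ± 0.34. Olfr835 (1.74 ± 0.55) and Olfr845 (1.29 ± 0.15) passed as higher too. Olfr24, at 11.97 to 13.99 against 12.77 to 12.99, overlapped between the gates and did not pass (0.10 ± 0.78), and neither did Olfr968 (0.83 ± 0.68; limma adjusted p = 0.0845).

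In gene order the members form 2 runs, of 35 and 93 receptors, separated by 17.4 Mb in the reference gene table (GRCm38.p6). The median gap between neighbours within the runs was 23.2 kb and the largest 127.3 kb. The first run, from Olfr24 to Olfr18, had 9 higher (25.7%) and 11 lower members (31.4%) in filtered air pools and a median gate ratio of -0.12. The second run, from Olfr874 to Olfr986, had 47 higher (50.5%) and 17 lower members (18.3%) and a median of 0.84. Among the other odorant receptors 34.6% were higher and 28.2% lower in filtered air pools, and over all genes 6.23% and 9.95%. In bourgeonal pools the first run had 10 higher and 10 lower members (28.6% each, median 0.07). The second run had 53 and 17 (57.0% and 18.3%, median 1.14). The other odorant receptors had 38.0% and 27.4% in these pools, and all genes 7.82% and 10.2%. The sign of the first run's median depends on the scaling: it was 0.24 in filtered air pools with each library centred on its median and 0.01 with quantile normalization, and -0.01 in bourgeonal pools with quantile normalization. It also turned when 1 pool was left out, to 0.01 in filtered air pools without vehicle pool 4 and to -0.04 and -0.03 in bourgeonal pools without odor pools 1 and 3. The second run's median stayed above 0 in each of these. Members are not replicates, and the difference between the runs was not tested.

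Gate ratios were also compared between adjacent members. Of 126 adjacent pairs within the runs, 76 had filtered air ratios of the same sign. The share over all pairs of members was not counted, and 81 of the 128 members had ratios above 0. The ratios of adjacent members had a Pearson correlation of -0.01, so no linear relation was seen. These values describe pairs of probe sets that share libraries, over genes that are not independent. Some stretches were more even. From Olfr935 to Olfr948, 6 of 11 members were lower and 2 higher. All 11 belong to the family MOR171, so position and family cannot be told apart in this stretch. It was picked after its values were seen and has no test. Olfr969, Olfr970, Olfr971 and Olfr972, which follow each other, had ratios of -4.67, 3.24, 2.46 and -5.64.

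**Figure D2:**
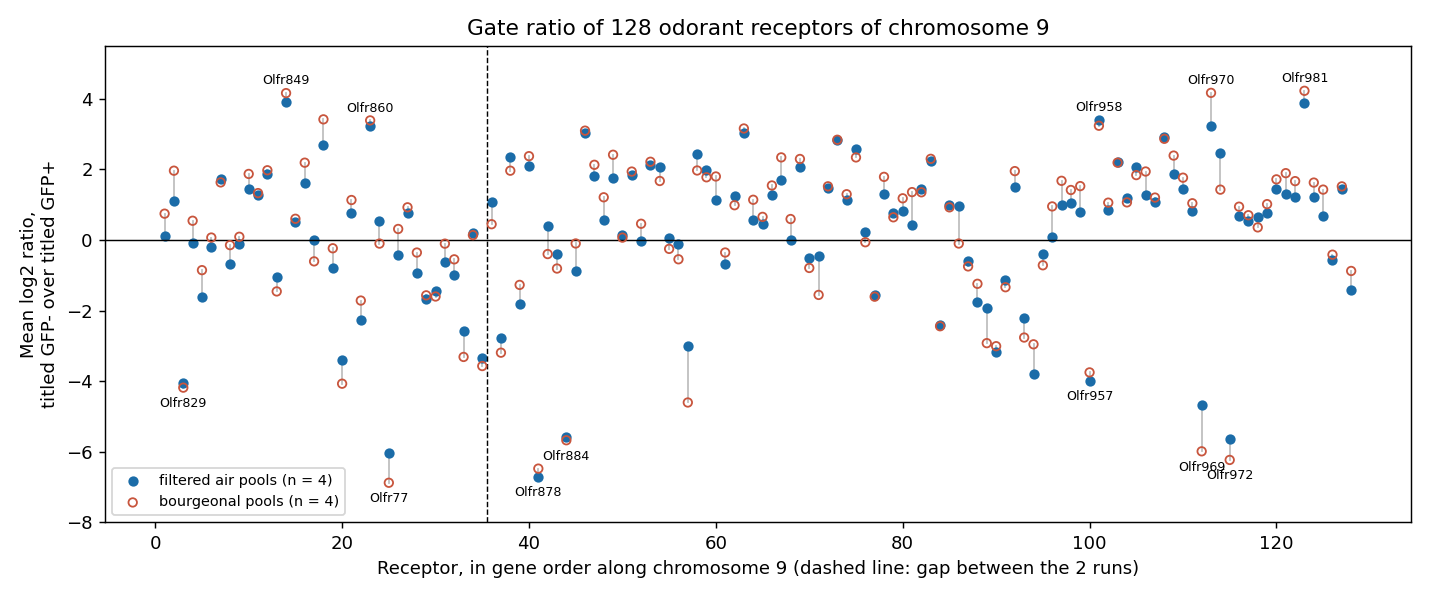
Mean log2 gate ratio (vertical axis) of the 128 receptors in gene order along chromosome 9 (horizontal axis), with filled points for 4 filtered air pools, open points for 4 bourgeonal pools and a grey line joining the values of 1 receptor. The dashed line marks the gap between the runs. Filled and open points lie close together while neighbours can differ widely, as for Olfr969 at -4.67 and Olfr970 at 3.24 in filtered air pools.

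The members fall into 29 MOR families, 14 of them with 3 or more members. In filtered air pools 34.6% of the other odorant receptors were higher and 28.2% lower, against 6.23% and 9.95% of all genes. In bourgeonal pools the shares were 38.0% and 27.4% of the other odorant receptors and 7.82% and 10.2% of all genes. Families are small, and no family was tested against these shares. The 5 members of MOR223 (Olfr978 to Olfr982), which are neighbours, were all higher in titled GFP- libraries in both treatments. Their ratios in filtered air pools were 1.44 ± 0.67, 1.30 ± 0.35, 1.22 ± 0.12, 3.88 ± 0.17 and 1.22 ± 0.88. Of the 10 members of MOR224, 7 were higher and 0 lower in filtered air pools, and 8 were higher in bourgeonal pools. Without vehicle pool 2, 4 members of MOR224 were higher in filtered air pools. The highest in filtered air was Olfr958, followed by Olfr934 (2.24 ± 0.95), Olfr148 (2.22 ± 0.59) and Olfr961 (2.07 ± 0.49), which differed by less than their spread. In MOR165, 5 of 7 members were higher and 0 lower, led by Olfr921 (2.57 ± 0.83) and Olfr914 (2.07 ± 0.61). All members of these 3 families had mean ratios above 0 in both treatments, also with libraries centred or quantile normalized. Receptors of one family have similar sequences, and probes can bind a relative's RNA; this was not tested.

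All 3 members of MOR167 also had mean ratios above 0 in both treatments. In that family 2 were higher in filtered air pools and 3 in bourgeonal pools, and 0 were lower. None of the 3 members of MOR152 passed in either treatment. Some families were split. MOR171, with 34 members the largest family, had 15 higher and 9 lower in filtered air pools, and 18 and 10 in bourgeonal pools. In filtered air the counts were 8 and 8 without vehicle pool 2 and 9 and 8 without vehicle pool 3, so they were near even. Without vehicle pool 2 the number of higher genes also fell over all genes, as given above. With all pools, 22 of the 34 filtered air ratios were above 0 (median 0.77). The lower members of MOR171 included Olfr972, Olfr969, Olfr957, Olfr948 and Olfr943 (-3.18 ± 0.43), and its higher members Olfr970, Olfr965 and Olfr919 (2.82 ± 0.68). Of the 9 lower members, 6 lay in the stretch from Olfr935 to Olfr948. MOR170 held Olfr251 (2.44 ± 0.48), Olfr143 (2.11 ± 0.39) and Olfr895 (2.07 ± 0.35) on the one side and Olfr250 (-3.02 ± 1.44), the neighbour of Olfr251, on the other. In MOR162 Olfr884 (-5.59) was lower and Olfr887 (3.04), Olfr888 (at least 1.81) and Olfr890 (1.76) were higher. Of the 6 members of MOR145, in the first run, 3 were lower, among them Olfr18 (-3.35 ± 0.64), and 0 were higher in either treatment. With libraries centred, 3 were lower and 1 higher in filtered air pools and 2 lower and 2 higher in bourgeonal pools, and with quantile normalization 3 were lower and 1 higher in bourgeonal pools.

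**Figure D3:**
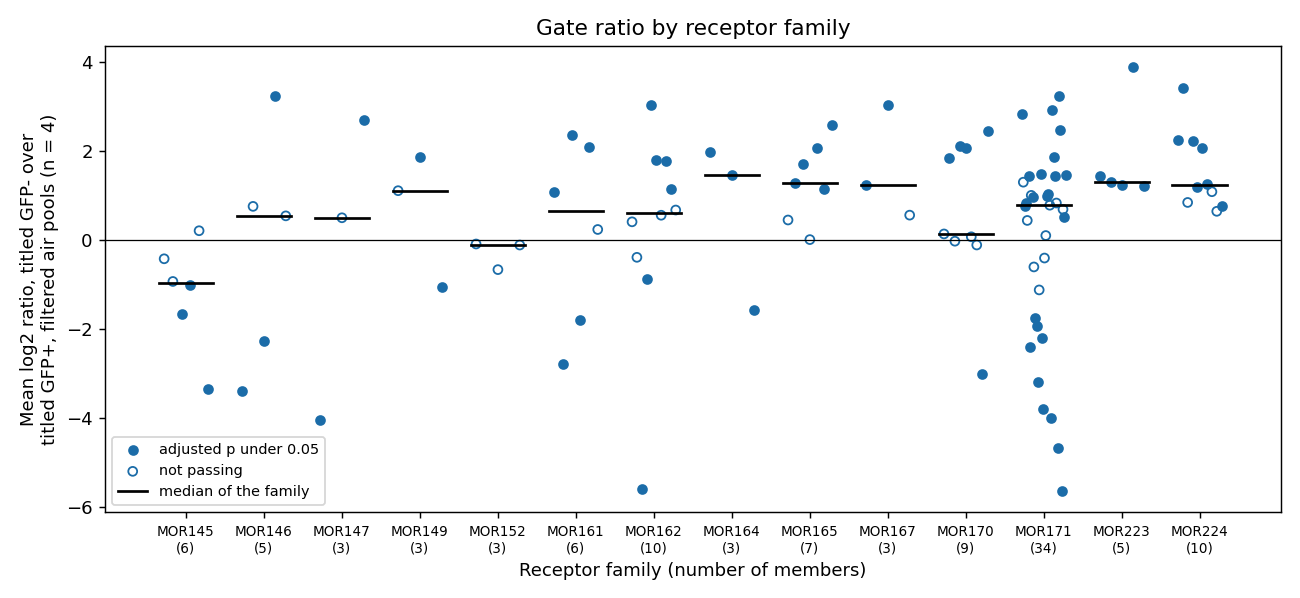
Mean log2 gate ratio in 4 filtered air pools (vertical axis) of each member of the 14 families with 3 or more members (horizontal axis, number of members in brackets). Filled points passed at an adjusted p under 0.05, open points did not, and bars are family medians. MOR223, MOR224, MOR165 and MOR167 lie above 0, while MOR171 spans -5.64 to 3.24.

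Pairs of receptors with similar upstream sequence allow the gate ratio to be set beside that sequence. RefSeq sequence of the 250 bases before the annotated start (GRCm38.p6) was at hand for 107 of the 128 members. For 68 of these the annotated start is an ATG, so the window precedes the coding start and need not hold the transcription start. In pairwise global alignments of the windows, 31 of 5671 pairs had at least 70% identical bases, against a median of 58.4% over all pairs, and all 31 joined members of one MOR family. Of those 31 pairs, 13 had filtered air gate ratios of opposite sign, and 13 differed by over 2 on the log2 scale. The same counts were not made over all pairs, so they do not set the 31 pairs apart from others. The median difference of the 31 pairs was 1.43, against 1.71 over all pairs. The 3 pairs with the largest differences are shown because they set similar upstream sequence beside unlike gate ratios.

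The stretches run 5′ to 3′ from base 250 to base 31 before the annotated start, and capitals mark bases that differ from, or have no partner in, the other member of the pair. Olfr969 (chr9:39795127-39795346, plus strand) and Olfr970 (chr9:39819391-39819610, plus strand) share 171 of 220 bases.
Olfr969: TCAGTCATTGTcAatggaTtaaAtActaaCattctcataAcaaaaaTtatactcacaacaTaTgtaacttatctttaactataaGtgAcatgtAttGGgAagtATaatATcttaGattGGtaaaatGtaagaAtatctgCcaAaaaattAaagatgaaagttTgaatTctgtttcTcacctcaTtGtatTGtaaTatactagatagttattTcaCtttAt
Olfr970: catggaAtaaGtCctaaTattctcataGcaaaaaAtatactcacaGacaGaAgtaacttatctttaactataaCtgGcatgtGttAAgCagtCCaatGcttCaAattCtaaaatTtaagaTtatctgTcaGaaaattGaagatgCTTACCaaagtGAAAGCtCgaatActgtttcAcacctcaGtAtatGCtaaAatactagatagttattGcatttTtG
Olfr968 (chr9:39772829-39773048, minus strand) and Olfr972 (chr9:39873027-39873246, plus strand) share 193 of 220 bases.
Olfr968: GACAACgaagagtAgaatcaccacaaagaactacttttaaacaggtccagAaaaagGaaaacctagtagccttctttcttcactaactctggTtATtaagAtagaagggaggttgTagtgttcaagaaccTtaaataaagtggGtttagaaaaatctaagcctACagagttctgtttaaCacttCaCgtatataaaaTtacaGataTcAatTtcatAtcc
Olfr972: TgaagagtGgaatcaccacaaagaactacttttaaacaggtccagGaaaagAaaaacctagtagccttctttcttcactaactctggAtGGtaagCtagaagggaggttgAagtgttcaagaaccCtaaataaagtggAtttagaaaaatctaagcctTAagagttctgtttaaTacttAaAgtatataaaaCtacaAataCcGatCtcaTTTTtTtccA
Olfr875 (chr9:37772387-37772606, plus strand) and its neighbour Olfr876 (chr9:37803639-37803858, plus strand) share 179 of 220 bases.
Olfr875: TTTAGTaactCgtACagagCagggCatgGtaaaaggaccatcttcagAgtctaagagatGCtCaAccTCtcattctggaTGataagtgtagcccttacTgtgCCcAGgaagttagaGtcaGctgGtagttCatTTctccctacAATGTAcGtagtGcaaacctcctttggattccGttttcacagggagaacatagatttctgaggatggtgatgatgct
Olfr876: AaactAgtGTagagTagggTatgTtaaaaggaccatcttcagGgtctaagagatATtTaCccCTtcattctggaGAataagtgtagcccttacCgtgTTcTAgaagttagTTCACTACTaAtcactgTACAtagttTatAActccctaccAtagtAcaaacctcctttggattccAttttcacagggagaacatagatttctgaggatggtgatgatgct

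In 2 of these 3 pairs the members lay on different sides of the sort. Olfr969 had 3.24, 6.01, 5.92 and 7.57 in titled GFP- libraries of filtered air pools and 10.22, 10.69, 10.51 and 9.98 in titled GFP+ libraries. Olfr970 had 9.15, 8.61, 8.76 and 8.88 in titled GFP- libraries and 6.85, 5.02, 4.56 and 6.01 in titled GFP+ libraries. The gates did not overlap for either gene and ran in opposite order. Olfr972 had 6.23, 5.75, 6.41 and 6.99 against 11.29, 12.47, 12.27 and 11.92, a ratio of -5.64 ± 0.83. Olfr968 stood at 12.26, 12.31, 12.18 and 11.38 against 11.09, 10.70, 11.86 and 11.16; its gates overlapped and it did not pass in filtered air pools. In bourgeonal pools Olfr968 passed as higher (1.04 ± 0.73; limma adjusted p = 0.0313), but the difference between treatments did not pass (0.21, 95% interval -0.70 to 1.13). Olfr875 fell by 2.78 ± 0.19, from 8.81, 8.35, 8.10 and 8.84 to 6.27, 5.52, 5.34 and 5.83. Olfr876 rose by 2.35 ± 0.39, from a mean of 8.30 to 10.73, 11.04, 10.56 and 10.26. The distance between the ratios of Olfr875 and Olfr876 was many times the spread between pools.

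The windows were also searched on both strands for TAATTA, a core of homeodomain sites such as those bound by Lhx2, and for CCCNNGGG, the core of Olf/EBF sites; both motifs read the same on either strand. TAATTA was in 27 of 107 member windows (25.2%), in 17.3% of 833 windows of other odorant receptors and in 4.9% of all 27025 gene windows. Among members it was in 9 of 46 that were higher in titled GFP- libraries, 7 of 23 that were lower and 11 of 38 that did not pass. CCCNNGGG was in 2 member windows (1.87%), against 2.88% for other odorant receptors and 11.7% for all genes. TAATTA holds only A and T, and the fixed bases of CCCNNGGG are only C and G. The windows were not matched for base composition and the shares were not tested, so they do not show a gain or loss of binding sites.

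Most receptors had a gate ratio of the same sign with bourgeonal as with filtered air (118 of 128). In bourgeonal pools 63 members were higher and 27 lower in titled GFP- libraries (limma), with 7.82% higher and 10.2% lower over all genes; the number of higher genes went from 1526 to 935 without odor pool 2 and to 941 without odor pool 3. The other odorant receptors had 38.0% higher and 27.4% lower. The median gate ratio of the members was 0.94. In both treatments 54 members were higher and 25 lower, 33 passed in neither and 0 passed in opposite directions. A further 5 passed in filtered air only and 11 in bourgeonal only, which does not show that the treatments differ. The gate ratio was above 0 in all 8 pools for 57 members and below 0 in all 8 for 25. Agreement between the treatments was not measured for the other odorant receptors or for all genes, so it does not set the members apart. Over the 128 members, Pearson's r between the ratios with and without odor was 0.976 and Spearman's rho 0.964; the members share a fit and libraries and are not replicates. The median size of the difference between treatments was 0.35. In bourgeonal pools Olfr981 was at 4.23 ± 0.36 and Olfr849 at 4.16 ± 0.28. Olfr77 was at -6.88 ± 0.69 and Olfr878 at -6.48 ± 0.44 in these pools. The titled GFP- means of Olfr77 and Olfr878 lay below background there, so both falls are lower bounds and have no order.

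The gate ratio with bourgeonal minus that with filtered air addresses whether bourgeonal moved a receptor between the gates. Of the 128 members, 0 passed in limma (smallest adjusted p = 0.823), as did 0% of all genes. At an unadjusted p under 0.05 there were 12 members (9.38%), against 5.69% of all genes and 6.93% of the other odorant receptors. The median 95% interval of a member's difference, not adjusted for the number of genes, reached 0.88 to either side on the log2 scale. The adjusted threshold is stricter, so a shift had to be larger than this to pass for a typical member. The median difference was 0.15 for the members, 0.13 for the other odorant receptors and 0.02 for all genes. Without odor pool 3 the members' median was 0.10, and without vehicle pool 1 that of the other odorant receptors was 0.05. Differences ran from -1.59 to 0.93, and the 6 over 1 in size were all below 0. The largest of these was that of Olfr250, at -1.59 (95% interval -3.08 to -0.10); it falls outside the rule for named genes and was chosen after its values were seen. Its titled GFP- values were 7.68, 8.29, 10.05 and 10.14 with filtered air and 8.35, 6.48, 7.52 and 8.22 with bourgeonal, and they overlapped.

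The 5 members with the smallest p for the difference were Olfr948, Olfr854, Olfr971, Olfr866 and Olfr885, and none passed. Olfr948 had a difference of 0.83 (95% interval 0.29 to 1.38). Olfr854 went from 2.70 ± 0.26 in filtered air to 3.42 ± 0.29 with bourgeonal, a difference of 0.72 (0.25 to 1.18). Olfr971 went the other way, from 2.46 ± 0.43 to 1.43 ± 0.58, a difference of -1.03 (-1.73 to -0.33). Olfr885 had a difference of 0.78, with values close to background, and Olfr866 (0.74) lay below background in all groups. Intervals of members picked for a small p are not independent evidence.

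Bourgeonal against filtered air within the libraries titled GFP- again gave 0 members past the threshold in limma (smallest adjusted p = 0.996), and 0% of all genes passed. At an unadjusted p under 0.05 there were 14 members (10.9%), against 4.46% of all genes and 7.14% of the other odorant receptors. The 5 with the smallest p were Olfr948 (0.90), Olfr971 (-1.06), Olfr860 (0.86), Olfr894 (1.11) and Olfr885 (0.68), as log2 differences that did not pass. This comparison shares its libraries with the difference above, so names in both lists are not found independently. Olfr971 had 7.24, 7.30, 7.62 and 7.18 in filtered air libraries and 6.45, 5.96, 6.91 and 5.80 in bourgeonal libraries, which did not overlap. Olfr894 had 5.94, 5.70, 6.22 and 4.82 with filtered air and 6.94, 7.06, 6.34 and 6.79 with bourgeonal, also without overlap. Olfr860 stood at 8.26, 8.32, 9.10 and 8.57 against 9.47, 9.72, 9.29 and 9.19. It had a difference of 0.70 in titled GFP+ libraries, the same direction in both gates, and its gate ratio differed by 0.16 (95% interval -0.35 to 0.66). Olfr948 had 3.44, 3.68, 3.98 and 3.83 with filtered air and 4.78, 4.82, 4.74 and 4.19 with bourgeonal, all below the background of these groups.

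Within the libraries titled GFP+ 0 members passed in limma (smallest adjusted p = 0.999), and 0.0103% of all genes passed as lower and 0% as higher. At an unadjusted p under 0.05 there were 12 members (9.38%), against 4.24% of all genes and 7.04% of the other odorant receptors. The 5 with the smallest p were Olfr979 (-0.61), Olfr917 (1.16), Olfr936 (1.02), Olfr883 (0.95) and Olfr918 (-0.65). Olfr979, of the MOR223 family, had 6.45, 6.47, 6.58 and 6.04 with filtered air and 5.84, 5.86, 5.64 and 5.76 with bourgeonal, without overlap, while its titled GFP- libraries had a difference of -0.02. Olfr918 had 9.17, 9.51, 9.05 and 9.33 with filtered air and 8.98, 8.10, 8.83 and 8.55 with bourgeonal. Olfr917, Olfr936 and Olfr883 had filtered air means of 3.46, 3.01 and 4.25, below background.

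**Figure D4:**
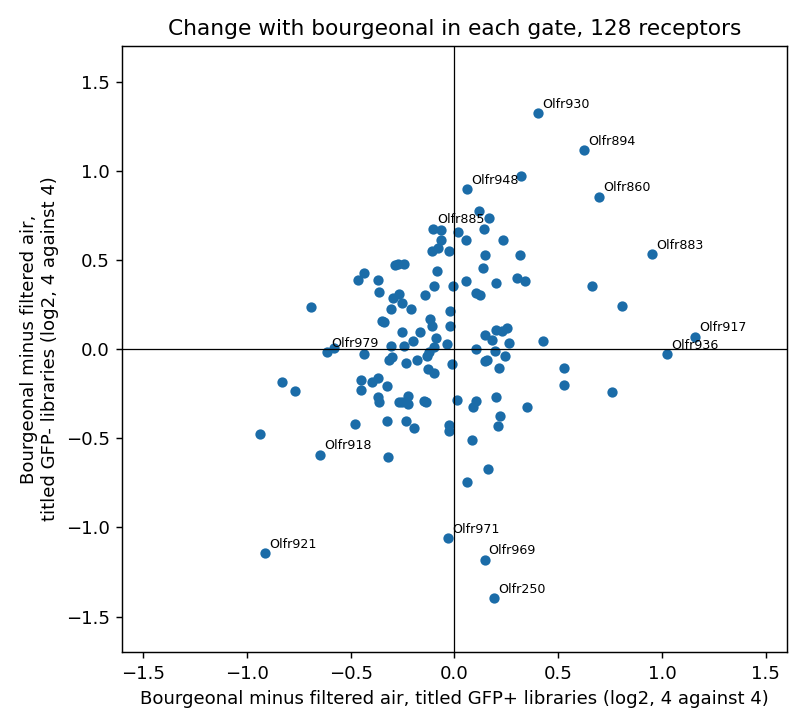
Bourgeonal minus filtered air on the log2 scale in titled GFP+ libraries (horizontal axis) and in titled GFP- libraries (vertical axis), 4 libraries against 4 in each, 1 point per receptor. None of the 128 points passed at an adjusted p under 0.05 on either axis; they range from -0.94 to 1.16 across and from -1.40 to 1.32 upward.

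Genes that carry the receptor signal, and genes listed with them, were tested in the same fits. The 23 genes cover transduction and receptor trafficking, and also Ldb1, Lhx2, Ebf1 and Kdm1a, which regulate gene expression. Lhx2 and Ebf1 were also among the immature neuron genes above. In titled GFP- libraries of filtered air pools 4 of the 23 were higher and 1 lower (limma), against 6.23% and 9.95% of all genes. The 23 genes had a median gate ratio of 0.11. The higher genes were Ano2, the chloride channel of the cilia (0.44), the exchanger Slc24a4 (0.49) and the phosphodiesterases Pde1c (0.64) and Pde4a (0.59). Grk3, a kinase that desensitises receptors, passed as lower, but its titled GFP- mean lay below background and its titled GFP+ mean of 4.74 just above it. Cnga3 lay below background in all groups and Cngb1 in both filtered air groups, so a difference in these genes could go unseen. Gnal (0.02), Gng13 (0.13) and Gnb1 (0.06), subunits of the G protein, did not pass. Gnal and Gnb1, with means of 18.65 and 18.83 over all libraries, lay near the top of the scale. In bourgeonal pools 3 were higher and 1 lower, and 0 of 23 passed in the difference between treatments or in bourgeonal against filtered air within either gate.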

How the data were processed

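The deposited log2 expression values of 16 libraries were used. The submitters' processing notes name Affymetrix Expression Console as the authors' tool; its version, the summarisation and the build were not stated in the labels or headers, and the log base was read from the range of the values. Precision is set by the number of arrays. Of 28846 probe sets, 31 array controls with an AFFX prefix and 6546 with neg or pos in the ID were left out, 2697 had no gene name, and the brightest probe set of each gene gave 19505 genes. Nothing says that libraries of a group come from separate days, so p-values measure the spread between these pools.

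Differences were tested two-sided in R 4.3.3 with limma 3.58.1 (lmFit, eBayes; Benjamini-Hochberg over all genes, threshold 0.05). Gate ratios and their difference came from one model of the 16 libraries that included the pool as a block; bourgeonal was compared with filtered air in each gate on 8 libraries. The fits were tested on simulated data. The gates of a pool were paired because 24 mice, 3 per library, leave 8 pools for 16 libraries; deviations from group means correlated at 0.098 to 0.287 between them. Odor and vehicle libraries of one number correlated at 0.157 to 0.210 among titled GFP+ and at 0.088 to 0.161 among titled GFP- libraries. Alternatives were other scalings, filters and blocks and leaving out each pool. Gene IDs of all 128 members matched the reference gene table.

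Members, lists and tests were chosen with earlier results of these data known. Named members were the 8 largest falls and rises in filtered air pools above background, the 5 smallest p-values of each odor comparison and the 5 highest means; a planned comparison of protein sequences was not run and upstream sequences were compared in its place.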

Additional observations from a re-analysis of the deposited data

Results flagged for a closer look

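Among the 31 named receptors, 124 groups of 4 libraries were examined for a library far from the other 3, and 8 had one; chance alone gives about 1 in 20. In bourgeonal libraries titled GFP-, pool 4 was low for Olfr845 (11.32, against 12.51 for the nearest other) and Olfr948 (4.19, against 4.74) and high for Olfr866 (5.15, against 4.45). In the same group Olfr883 was low in pool 3 (3.57, against 4.64). In filtered air libraries titled GFP-, Olfr883 was low in pool 3 (3.33, against 3.99) and Olfr968 in pool 4 (11.38, against 12.18). In filtered air libraries titled GFP+, pool 1 was low for Olfr948 (6.90, against 7.71) and Olfr958 (8.63, against 9.60). The values of Olfr866 and Olfr883 lie near or below background.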

How the results depend on the processing

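Over the 128 members, the counts of higher and lower in the gate ratios stayed within 1.5 times of the main counts under every alternative run. In filtered air pools they ranged over 51 to 73 higher and 25 to 30 lower across scalings, filters, the intensity trend and the fit without a pool block, and over 45 to 57 higher and 25 to 28 lower when 1 pool was left out. In bourgeonal pools the ranges were 56 to 76 and 25 to 27, and 53 to 65 and 25 to 29. Without the pool block, 51 were higher and 25 lower in filtered air pools and 56 and 25 in bourgeonal pools. With the replicate number as a block across treatments, 0 members passed in the 3 odor comparisons, as in every other alternative run for them. Each receptor named for a gate ratio or an odor comparison kept its direction and its side of the threshold in that comparison, under the alternatives in which it could be tested; the 5 named for their level were not followed. With the 3 pseudogene symbols counted, an alternative added after the data were seen, 57 were higher and 28 lower in filtered air pools and 64 and 27 in bourgeonal pools. Centring each library on its median moved the median gate ratio of all genes from 0.09 to 0.44 in filtered air pools and from 0.11 to 0.46 in bourgeonal pools, and the share of higher genes among all calls from 38.5% to 87.3% and from 43.3% to 87.3%. Centring moves the ratios of all genes by the same amount, so the members' medians had to move alike, from 0.68 to 1.03 and from 0.94 to 1.29. With the 90th percentile of vomeronasal genes as the guide to background 5 members lay below it in all groups, and with the 99th 19 did, against 9. Splitting runs at 200 kb or 2 Mb gave the same 2 runs.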
